A study of Rattus norvegicus with 31 samples.

Results

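Cytosolic ribosomal protein genes encode the proteins of the large (Rpl) and small (Rps) subunits of the ribosome that translates nuclear-encoded mRNAs. They were taken here by symbol (beginning Rpl or Rps followed by a digit or p, without the Rps6k kinases), with the brightest of a gene's probesets standing for it. The rule gave 40 genes with 44 probesets, among 9037 genes that had a probeset naming them alone and 16204 probesets in all. Of the 40 genes, 27 encode large-subunit proteins, 11 encode small-subunit proteins, and 2 are the relative Rpl7l1 and the pseudogene Rpl37-ps2. A further 34 probesets list a ribosomal protein gene together with other genes, which need not be its copies. These probesets were counted apart and carry no gene name in the text.

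RNA came from the microdissected CA3 region of the hippocampus of male Long-Evans rats, aged 24 months at behavioural assessment, and each array measured 1 rat. Rats were aged unimpaired (AU) or aged impaired (AI) by their memory in a water maze, and weeks later each received 1 session of 8 visible-platform trials. In the spatial task (S) the platform stayed in place among prominent cues; in the non-spatial control task (NS) it moved between trials and the cues were absent. CA3 was collected directly after a probe trial without the platform, some 2 hours after the task began. All 31 rats had thus been trained and none was a home-cage control. The groups were AU-S (n = 8), AI-S (n = 8), AU-NS (n = 8) and AI-NS (n = 7); AU-act and AI-act denote the tasks pooled (n = 16 and n = 15). Each array's median lay between 8.97 and 9.14 on the log2 scale, and each array's mean correlation with the others lay between 0.981 and 0.989. In tissue of this kind, fewer cells of a type and less RNA per cell cannot be told apart.

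Ribosomal protein mRNAs are among the most abundant in a cell and are made in matched amounts, since each ribosome holds a copy of nearly every one of these proteins. Most of them begin with an uninterrupted stretch of pyrimidines, the 5′ terminal oligopyrimidine (TOP) sequence, through which mTORC1 signalling controls their translation. In neurons they are also found in dendrites, and translation after training is needed for lasting memory. An array measures mRNA level and not its translation.

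Start-site sequence was available from RefSeq (build GRCr8) for 35 of the 40 genes. Rpl23a, Rpl27, Rpl37-ps2, Rpl7 and Rps29 had no entry. The windows below show a pyrimidine run that crosses the annotated start in Rps23, Rps24, Rpl35a and Rplp0 and one that begins at base 5 of the transcript in Rps28. The other windows show genes whose longest run was shorter than the 8 bases counted here. They are Rpl7l1 (5 bases, the only gene of the 40 to pass between AU-act and AI-act), Rpl12 (7 bases, crossing the start) and Rps6 (5 bases). Each window holds 15 bases before and 15 after the annotated start, 5′ to 3′. Capitals mark the longest run of C and T, where it reached 8 bases, counted between 10 bases before and 20 after the start; a run may go on beyond the letters capitalised or printed.
Rps23 (chr2:23814502-23814531, plus strand): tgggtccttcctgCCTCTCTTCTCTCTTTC
Rps24 (chr16:96502-96531, plus strand): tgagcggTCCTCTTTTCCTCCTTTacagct
Rpl35a (chr11:81235007-81235036, minus strand): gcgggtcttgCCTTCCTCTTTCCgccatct
Rplp0 (chr12:46718376-46718405, minus strand): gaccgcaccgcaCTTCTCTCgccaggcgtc
Rps28 (chr7:15311319-15311348, minus strand): gcatcccctgctcacgtgaCTCCTCTCCgc
Rpl7l1 (chr9:21695703-21695732, plus strand): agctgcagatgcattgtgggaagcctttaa
Rpl12 (chr3:36661925-36661954, plus strand): ggagcaacatccgtcttttcggctttcggt
Rps6 (chr5:106420526-106420555, minus strand): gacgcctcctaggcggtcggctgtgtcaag

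A run of at least 8 pyrimidines on the sense strand was present in 19 of the 35 genes (54.3%), compared with 10.6% of the 27457 start regions in the table, with 4 of 8 elongation factors and other TOP mRNAs (50%) and with 2 of 34 ribosome biogenesis genes (5.88%). Counting the whole of any run that overlapped the searched bases, a definition adopted after the first count was seen, gave 24 of 35 (68.6%) against 16.6%. Other letters were searched over the 250 bases before and 50 after the start. CCGGAAG, on either strand, was found in 9 of 35 (25.7%) against 9.22% of all and 19 of 34 ribosome biogenesis genes (55.9%), and its reverse complement can overlap a pyrimidine run. AAGATGGC, on either strand, was found in 4 (11.4%) against 3.44%, and TATAAA, on the sense strand, in 3 (8.57%) against 9.08%. These matches describe letters only, and the annotated starts were not measured here.

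The ribosomal protein genes varied together from rat to rat. After each gene's group means were removed, the median Pearson correlation over the 780 pairs of members was 0.80 across the 31 arrays, compared with 0.039 over all pairs of the 9037 genes. This is a description, since the genes share each array's RNA and normalization and their probesets are bright. The closest to the mean of the other members were Rpl18 (r = 0.96), Rpl14 (0.95) and Rpl26 (0.95), and 37 of 40 members exceeded 0.5. The exceptions were Rpl7l1 (0.4965), Rpl39 (0.35) and Rpl37-ps2 (-0.37).

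**Figure D1:**
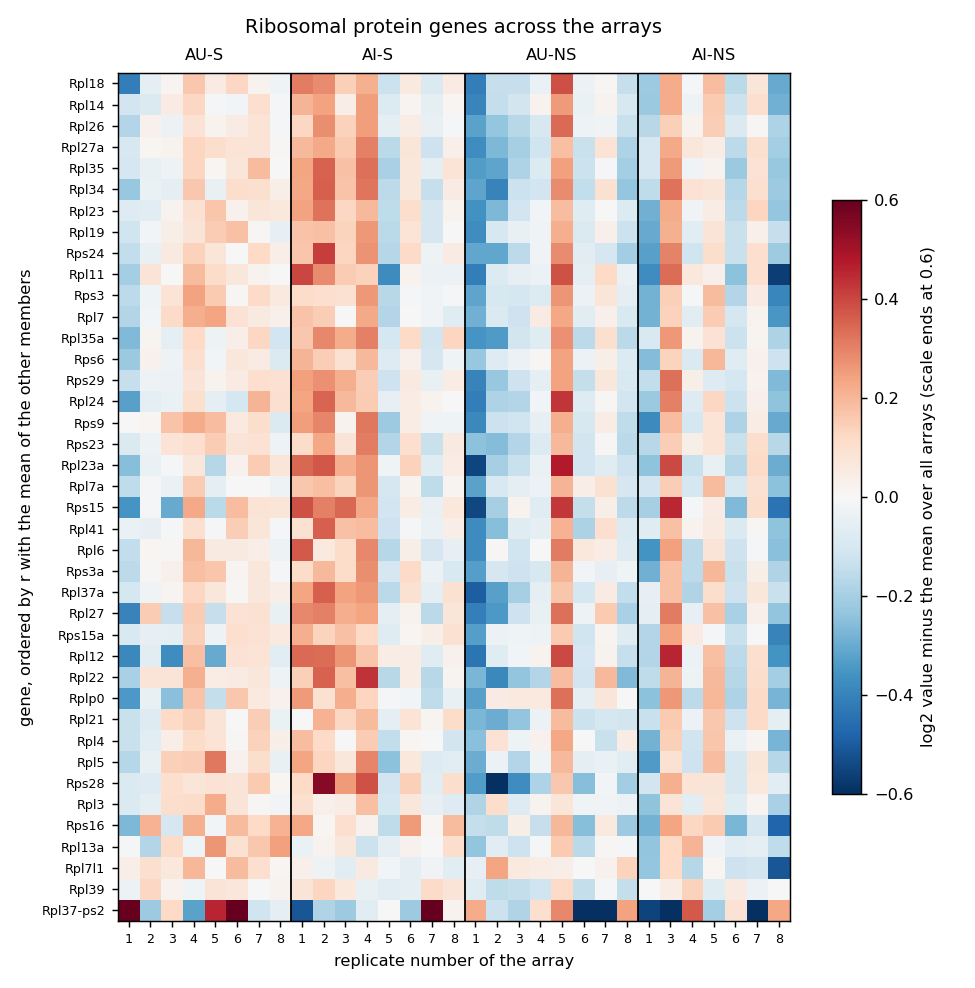
Log2 value of each of the 40 genes (rows) on each of the 31 arrays (columns, by group and replicate number), minus that gene's mean over all arrays; red is higher and blue lower, and colours saturate at 0.6. Most rows change colour together from column to column, whereas Rpl37-ps2 in the bottom row (r = -0.37 with the mean of the others) does not.

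The mean of the 40 genes on each array gave the size of this shared variation. In AU-S rats the lowest, median and highest arrays were 12.44, 12.60 and 12.69 (mean 12.60 ± 0.081 SD, n = 8). In AI-S rats they were 12.45, 12.66 and 12.79 (mean 12.65 ± 0.12 SD, n = 8). In AU-NS rats they were 12.25, 12.46 and 12.82 (mean 12.49 ± 0.16 SD, n = 8). In AI-NS rats they were 12.33, 12.55 and 12.76 (mean 12.53 ± 0.16 SD, n = 7). All 4 groups overlapped, and the lowest and the highest of the 31 arrays were both AU-NS rats.
Within AI-S, the arrays numbered 1 to 4 in the labels had means of 12.75, 12.79, 12.70 and 12.78, whereas those numbered 5 to 8 had 12.45, 12.62, 12.54 and 12.59. The labels do not say what the number stands for. The split was made after the values were seen, and the other groups did not share it. In AU-S, arrays 1 to 4 ran from 12.44 to 12.69 and arrays 5 to 8 from 12.58 to 12.67. In AU-NS they ran from 12.25 to 12.53 and from 12.46 to 12.82. In AI-NS, which had no array 2, they ran from 12.35 to 12.76 and from 12.33 to 12.66.

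**Figure D2:**
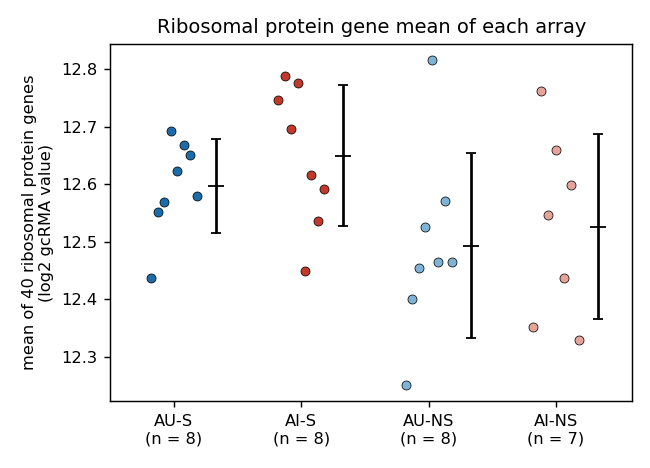
Mean log2 value of the 40 ribosomal protein genes on each array (points), by group, with the group mean and SD beside the points. The groups overlap throughout, and the AU-NS arrays span from 12.25 to 12.82.

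The comparison of AU and AI rats after both tasks asked whether the memory phenotypes differed in CA3 expression after training. Of the 40 genes, only the relative Rpl7l1 (1 gene) passed an adjusted p under 0.05, and it rose in AU-act relative to AI-act. None of the 27 large-subunit and 11 small-subunit genes passed. By the same limma test 5.51% of all probesets were called (5% higher and 0.512% lower in AU-act). Before adjustment, 3 members had a p under 0.05, against 19.5% of all probesets. The median member difference was -0.057 (log2, AU-act minus AI-act) beside 0.0072 for all probesets, and 10 members were above 0, against 53.3% of all probesets. The median was -0.024 (15 above 0) with the hexokinase covariate and -0.089 (3 above 0) with quantile normalization. The 27 large-subunit genes had a median of -0.069 and the 11 small-subunit genes -0.037.

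Rpl7l1 encodes a relative of the large-subunit protein Rpl7. Its brighter probeset had lowest, median and highest values of 9.28, 9.36 and 9.48 in AU-S, 9.21, 9.25 and 9.33 in AI-S, 9.23, 9.32 and 9.52 in AU-NS, and 8.77, 9.16 and 9.40 in AI-NS. All 16 AU arrays lay above the AI-act mean, yet the groups overlapped. The difference was 0.15 (log2, SE 0.044, limma adjusted p = 0.0338; SAM q = 0.0126). It was 0.11 after the spatial task (adjusted p = 0.324) and 0.21 after the non-spatial task (adjusted p = 0.332). The gene's other probeset differed by 0.049 (SE 0.045, adjusted p = 0.599).
The call was lost with the Gapdh and beta-actin RNA controls as a covariate (0.076, adjusted p = 0.547), with the hexokinase control as a covariate (0.098, adjusted p = 0.735) and when replicate number entered as a block (0.15, adjusted p = 0.0669). It was also lost without any 1 of AI-NS 1, AU-NS 2, AU-NS 8, AU-S 4 or AU-S 6, with adjusted p between 0.0517 and 0.0627. These controls compare 3′ with 5′ probesets of a transcript, and they differed between the phenotypes. The 3′ minus 5′ difference of Gapdh and beta-actin averaged 1.45 ± 0.097 (SD, n = 16) in AU-act and 1.59 ± 0.13 (SD, n = 15) in AI-act, and that of hexokinase 1.41 ± 0.15 and 1.79 ± 0.27. Their part in the difference was not tested beyond these covariates. The share of all probesets called with these covariates is not given here, so the loss cannot be read as particular to Rpl7l1.

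**Figure D3:**
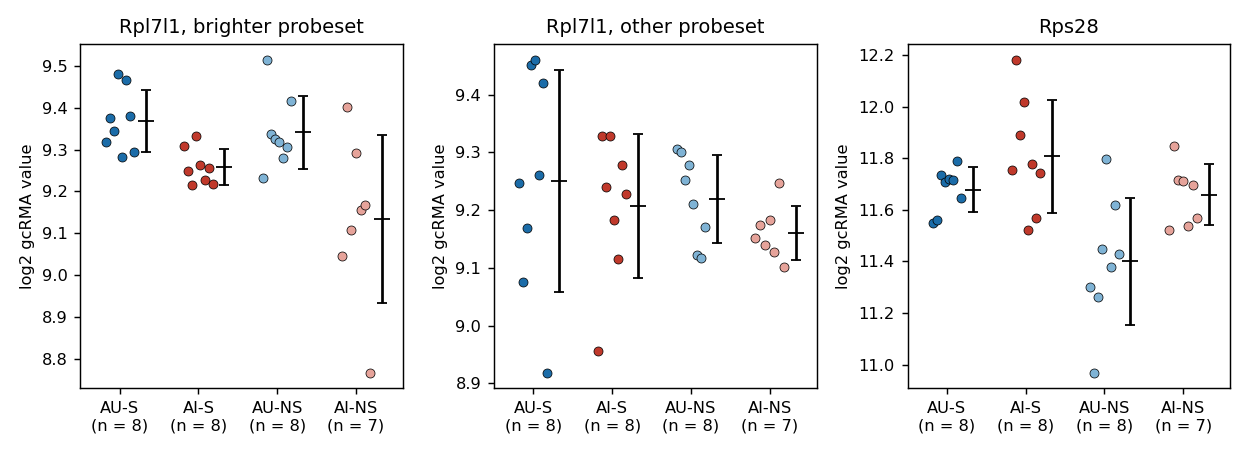
Log2 value on each array (points) of the 2 Rpl7l1 probesets and of Rps28, by group, with the group mean and SD beside the points; each panel has its own axis. For the brighter Rpl7l1 probeset the AI-NS arrays reach down to 8.77, and for Rps28 the AU-NS arrays reach down to 10.97.

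Among the small-subunit genes, Rps28, whose protein sits near the mRNA exit channel, had the largest decrease. Its lowest, median and highest values were 11.55, 11.71 and 11.79 in AU-S, 11.52, 11.77 and 12.18 in AI-S, 10.97, 11.40 and 11.80 in AU-NS, and 11.52, 11.70 and 11.85 in AI-NS. The AU-NS arrays reached lowest, and 2 of the 16 AU arrays lay above the AI-act mean. The AU-act minus AI-act difference of -0.20 (SE 0.074) did not pass adjustment in limma (adjusted p = 0.115). Rps6, the substrate of the S6 kinases, differed by -0.036 (SE 0.047), Rps3, at the mRNA entry channel, by 0.016 (SE 0.059), and Rps15a by -0.037 (SE 0.052).

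Of the large-subunit genes, Rpl12, part of the base of the ribosomal stalk, had the largest decrease. Its values in AU-S were 12.02, 12.34 and 12.59 (lowest, median, highest) compared with 12.33, 12.51 and 12.74 in AI-S. In AU-NS they were 11.97, 12.36 and 12.80, compared with 12.05, 12.37 and 12.87 in AI-NS. The phenotypes overlapped in both tasks, with a difference of -0.15 (SE 0.077, limma adjusted p = 0.286). Rplp0, the protein on which the stalk is built, differed by -0.024 (SE 0.065).
Rpl35a (-0.13, SE 0.060), Rpl34 (-0.12, SE 0.067) and Rpl37a (-0.12, SE 0.061) were the next lowest, and none passed adjustment. Rpl5 and Rpl11, which carry 5S ribosomal RNA into the subunit and bind Mdm2 when free, differed by -0.0030 (SE 0.060) and 0.013 (SE 0.080). Rpl22, which has a paralog that can replace it, differed by -0.10 (SE 0.069). Rpl13a (0.029, SE 0.049) and Rpl3, which lies close to the peptidyl transferase centre (0.029, SE 0.040), were among the largest increases.

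For Rpl7 the probesets disagreed in direction. The brighter one differed by 0.028 (SE 0.057), and the dimmer one by -0.34 (SE 0.14, limma adjusted p = 0.156). The dimmer probeset had lowest, median and highest values of 5.56, 5.99 and 6.63 in AU-S, 5.94, 6.19 and 7.41 in AI-S, 5.58, 6.01 and 6.68 in AU-NS, and 6.02, 6.47 and 7.08 in AI-NS, so the groups overlapped. The second probesets of Rpl3 and Rps24 differed by -0.037 (SE 0.050) and -0.18 (SE 0.11). Rpl37-ps2 varied widely between rats, from 7.81 in AU-NS to 10.06 in AU-S, and its difference of 0.21 (SE 0.18) was within that spread.

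The probesets that list several genes lay lower still in AU-act. Their median was -0.11, and 1 of 34 was above 0. In 1 of the 34 the decrease passed the test (-0.18, SE 0.054, limma adjusted p = 0.0421). Among all probesets 0.512% were called lower and 5.51% were called in either direction. These probesets can detect several genes or copies, so they are not independent of the members.

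**Figure D4:**
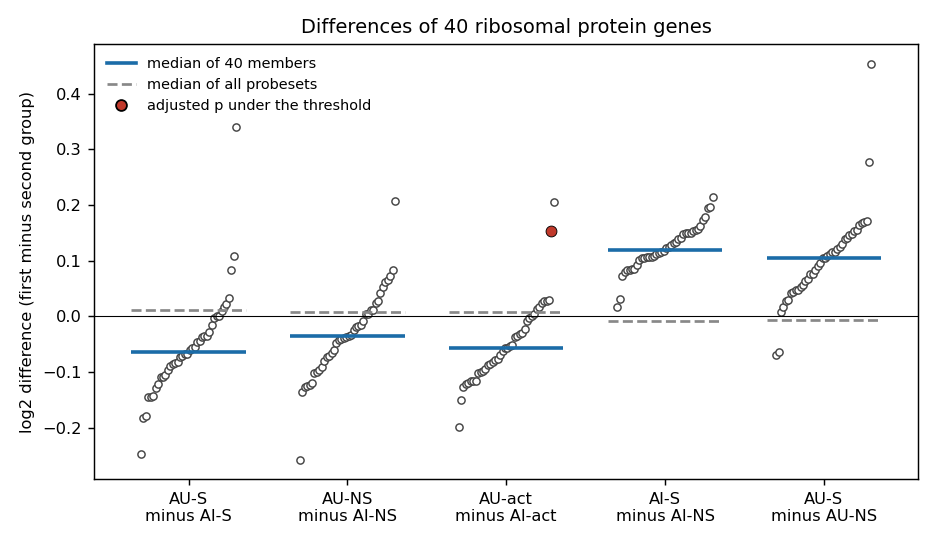
Log2 difference of each of the 40 genes (points, sorted within a comparison), first group minus second, in 5 comparisons; blue bars are the members' median, dashed grey bars the median of all probesets, and the filled point passed the adjusted threshold. Members lie mostly below 0 in the comparisons of AU with AI (median -0.057 in AU-act minus AI-act) and almost all above 0 in those of spatial with non-spatial training.

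After the spatial task alone, no member differed between AU-S and AI-S at an adjusted p under 0.1 in limma or in SAM, against 0.413% of all probesets in limma (0.389% higher and 0.0247% lower in AU-S). At an unadjusted p under 0.05 there were 3 members, against 12.3% of all probesets. The median member difference was -0.064 beside 0.011 for all probesets, and 9 members were above 0, against 53.9% of all. The lowest was Rpl12 (-0.25, SE 0.093, adjusted p = 0.290), for which 1 of 8 AU-S arrays lay above the AI-S mean. Rpl23a, a protein at the exit of the peptide tunnel, also had one of the smallest p values (-0.18, SE 0.076, adjusted p = 0.358), with values of 12.51, 12.77 and 12.92 in AU-S and 12.69, 12.94 and 13.14 in AI-S (lowest, median, highest). No AU-S array lay above the AI-S mean of Rpl23a, although the groups overlapped. All 34 of the probesets listing several genes were below 0, with a median of -0.14.
With the hexokinase control as a covariate the members' median turned to 0.037, with 30 of 40 above 0. Cell type markers went both ways in AU-S minus AI-S, none past the test. Above 0 were 7 of 8 neuron markers (median 0.080), all 3 measured of 6 CA3 pyramidal markers (median 0.043) and 4 of 6 interneuron markers. The 3 measured of 6 dentate granule markers were all below 0 (median -0.39), with a summed log2 level of 10.69 to 11.31 in AU-S and 10.88 to 11.88 in AI-S. All 6 measured of 10 microglial markers were below 0 (median -0.19), with a summed level of 11.61 to 12.23 in AU-S and 11.98 to 12.79 in AI-S. The plasma gene Alb differed by -0.76 (SE 0.19, limma adjusted p = 0.124). Hbb, the other measured gene of the choroid and blood list, differed by 0.070 (SE 0.27). With dentate granule and CA1 pyramidal marker levels as covariates the members' median was -0.051; the part of the microglial markers and Alb was not tested.

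After the non-spatial task, no member differed between AU-NS and AI-NS at an adjusted p under 0.1 in limma or SAM, and 0% of all probesets did so in limma. At an unadjusted p under 0.05 there were 2 members (Rpl7l1 and Rps28), against 11.5% of all probesets. The median member difference was -0.036 beside 0.0070 for all probesets, and 13 members were above 0, against 52.7% of all. This median turned to 0.015 without AU-NS 1 and to 0.0099 without AI-NS 3, and it was -0.12, with 2 of 40 above 0, with the Gapdh and beta-actin covariate. Rps28 had the lowest difference (-0.26, SE 0.098, adjusted p = 0.342). Rpl39, a small protein that lines the peptide tunnel, differed by -0.10 (SE 0.051, adjusted p = 0.461).
The spatial and non-spatial comparisons share no arrays. In both, 25 of 40 members were below 0, compared with 29.6% of all probesets, and 7 (17.5%) were above 0, compared with 36.2%. The members vary together (median r 0.80), so these counts, and those of members above 0 given before, are descriptions and not 40 separate observations.

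The comparison of the tasks within a phenotype asked whether the spatial version left a different profile. In AI rats, all 40 members were above 0 in AI-S minus AI-NS, against 47.3% of all probesets, but none passed an adjusted p under 0.1 in limma or SAM, and 0% of all probesets did so in limma. No member reached an unadjusted p under 0.05, against 4.09% of all probesets. The 4 highest AI-S arrays by member mean were those numbered 1 to 4 (12.70 to 12.79), while the others (12.45 to 12.62) lay around the AI-NS mean of 12.53. No other group split by number in this way. The median member difference was 0.12, beside -0.0078 for all probesets; the pooled SD of the member mean between rats of a group was 0.13. The highest was Rpl23a (0.21, SE 0.10, adjusted p = 0.862), followed by Rpl37-ps2 (0.20, SE 0.22); Rps15a differed by 0.15 (SE 0.080) and Rpl37a by 0.15 (SE 0.082).
In AU rats, 38 members were above 0 in AU-S minus AU-NS, against 47% of all probesets, and none passed an adjusted p under 0.1 in limma or SAM, where 0% of all probesets did so in limma. At an unadjusted p under 0.05 there were 7 members, against 8.12% of all. The median was 0.10, beside -0.0073 for all probesets. Rps28 was higher by 0.28 (SE 0.089, adjusted p = 0.605), and all 8 AU-S arrays lay above the AU-NS mean. Rpl27a differed by 0.17 (SE 0.069) and Rpl39 by 0.11 (SE 0.046), both with an adjusted p above the threshold. The exceptions were Rplp0 (-0.069, SE 0.089) and Rpl12 (-0.065, SE 0.107).

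The 2 task comparisons also share no arrays, and 38 of 40 members were above 0 in both, compared with 28.6% of all probesets. Of the probesets listing several genes, 27 of 34 (79.4%) were above 0 in both. The second probesets of Rpl7 and Rps24 averaged lower in AI-S than in AI-NS, and those of Rpl3 and Rpl7l1 higher. Because the members vary together, these counts do not stand for 40 separate observations. Median centring and quantile normalization of the arrays left the counts at 40 in AI rats and 38 in AU rats. Microglial markers moved the same way in AI rats: all 6 measured of 10 were above 0 in AI-S minus AI-NS (median 0.19, none past the test), with a summed log2 level of 11.98 to 12.79 in AI-S and 11.76 to 12.57 in AI-NS. The 3 measured of 6 dentate granule markers were also above 0 (median 0.38, none past the test), with a summed level of 10.88 to 11.88 in AI-S and 10.68 to 11.42 in AI-NS. Other lists did not all move so in AI rats. Above 0 were 5 of 8 neuron markers (median 0.012), 2 of 6 interneuron markers (median -0.041) and 1 of 3 CA3 pyramidal markers (median -0.0058). With dentate granule and CA1 pyramidal marker levels as covariates the members' median in AI rats was 0.10. In AU rats the dentate granule and microglial markers did not all move with the members. In AU-S minus AU-NS, 1 of 3 dentate granule markers (median -0.067) and 4 of 6 microglial markers (median 0.060) were above 0, none past the test. The part of microglial markers in the differences was not tested.

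No member passed the interaction of phenotype and task in limma at an adjusted p under 0.1 (0% of all probesets called), and none had an unadjusted p under 0.05, against 2.44% of all. The median interaction was -0.019 beside -0.0034 for all probesets, with 13 members above 0 against 48.7%. Its sign was not stable: it turned to between 1.9e-05 and 0.022 without any 1 of AI-NS 1, AI-NS 8, AU-NS 5, AI-S 2, AI-S 4 or AU-S 1. It ranged up to 0.26 (SE 0.36) for Rpl37-ps2 and was -0.21 (SE 0.16) for Rpl12. A p that misses the threshold does not show that members did not differ: the median half-width of the 95% interval of a member was 0.12 in AU-act minus AI-act and 0.23 for the interaction, and 39 of 40 intervals lay within 0.5 of 0 in AU-act minus AI-act.

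Genes that work with these proteins were read from lists. In AU-act minus AI-act, none of the 11 measured of 15 elongation factors and other TOP mRNAs passed the test in either direction. Nor did any of the 37 measured of 42 ribosome biogenesis genes or of the 14 measured of 17 genes of mTORC1 and S6 kinase signalling. Among all probesets 5.51% passed, a share at which few genes would be called in lists of this size. Their medians were -0.018, 0.038 and 0.016, compared with 0.0072 for all probesets. Rpsa and Rack1, the ribosomal proteins named outside the Rpl and Rps pattern that had a probeset of their own, differed by -0.082 (SE 0.058) and -0.048 (SE 0.056). The following genes were named after their values were seen. Ncl, the nucleolar protein nucleolin, differed by 0.23 (SE 0.083, limma adjusted p = 0.0935). Gtpbp4, also of the ribosome biogenesis list, lay nearer the threshold (0.17, SE 0.054, limma adjusted p = 0.0605). Eef2, the elongation factor that moves the ribosome along, differed by 0.13 (SE 0.049, adjusted p = 0.134). In the mTORC1 and S6 kinase list, Mtor differed by 0.017 (SE 0.039) and Rps6kb1, an S6 kinase, by -0.012 (SE 0.059). That list was not flat throughout, since Rps6ka3 differed by -0.27 (SE 0.089, limma adjusted p = 0.0696).

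Markers of the cells in the dissection were read beside these results. The 3 measured of 6 CA3 pyramidal markers had a summed log2 level of 11.69 to 12.31 over the groups, and markers of the neighbouring dentate granule (10.68 to 11.88) and CA1 pyramidal cells (11.23 to 13.01) were also detected. Of the 56 markers measured over 10 lists, 3 (5.36%) passed in AU-act minus AI-act, beside 5.51% of all probesets. Syt1 of neurons (0.28, SE 0.070, limma adjusted p = 0.0139) rose, with 6 of the 8 neuron markers above 0 (median 0.071). Gad2 of interneurons (0.48, SE 0.14, adjusted p = 0.0391) rose, whereas 2 of the 6 interneuron markers were below 0, Vip (-0.34, SE 0.15, adjusted p = 0.203) and Sst (-0.058, SE 0.13). Alb (-0.65, SE 0.16, adjusted p = 0.0139) fell, and Hbb, a haemoglobin gene and the other one measured of the choroid and blood list, differed by 0.11 (SE 0.25). All 6 measured microglial markers were below 0 (median -0.12, none past the test), with a summed log2 level of 11.61 to 12.36 in AU-act and 11.76 to 12.79 in AI-act. The part of these cells in the ribosomal protein differences was not tested.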

How the data were processed

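CA3 RNA of 31 rats was hybridised to Affymetrix rat expression arrays, 1 rat an array. The authors deposited log2 values after GCRMA normalization (named in the submitters' processing notes), 1 AI-NS array having been dropped by the authors as an outlier; the table held 16204 probesets with values from 1.312 to 16.12. Depth has no meaning for arrays, and the number of arrays limits the precision. Groups and replicate numbers came from the sample titles. A platform annotation dated 2016 named 1 gene for 12242 probesets, several for 293 and none for 3669; no gene was named from a probeset listing several.

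Each comparison was fitted on all probesets with limma 3.58.1 (lmFit and eBayes, two-sided) in R 4.3.3, with Benjamini-Hochberg adjustment over all probesets, at 0.05 for AU-act minus AI-act and 0.1 otherwise. Fits were tried on simulated arrays, where they returned the average of known changes. Noise there was independent between probesets, unlike the members, so this did not test counts of members. SAM with 100 permutations, intensity limits, scalings, array weights, covariates and leaving out each array were alternatives. Members and lists were chosen with earlier results of these data known. Named members were those past the threshold, the 5 largest changes each way between AU-act and AI-act, the 3 smallest p in each other comparison, genes whose probesets disagreed, and a set of 17 named whatever their values, of which 8 had their own probeset. The pyrimidine run was also counted by a second definition, adopted after the first result was seen. Figures used matplotlib 3.10.9.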

Additional observations from a re-analysis of the deposited data

Results flagged for a closer look

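Of 84 sets of arrays examined (the 20 named members and the member mean in 4 groups), 1 held an array far from the others, and chance alone flags about 1 in 20. For Rpl37-ps2 in AI-S, the array of replicate 7 had a log2 value of 9.72, and the nearest of the other AI-S arrays had 8.69.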

How the results depend on the processing

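The members called between AU-act and AI-act depended on the processing. The count of 1 (Rpl7l1) became 0 with the replicate block, with the Gapdh and beta-actin covariate and with the hexokinase covariate. Leaving out 1 array gave 0 to 1. The share of all probesets called under these settings is not given here, so the losses cannot be read as particular to Rpl7l1. Other sets of members were chosen after seeing the data. They gave 0 without Rpl7l1 and Rpl37-ps2 and 2 with the probesets listing several genes, counts that follow directly from the calls already given. The cause was not tested. In the other 5 comparisons the count of members called was 0 in limma under each alternative and each array left out, and in SAM where it was run.

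Deviations of same-numbered arrays of different groups had median r between -0.16 and -0.037, with at most 2 pairs of a comparison above 0.1. The highest was 0.31, between AU-NS and AI-NS. The numbers were not taken as pairs. Arrays with different numbers were not compared, so a batch spanning several numbers was not tested. The replicate block moved the count between AU-act and AI-act from 1 to 0 and changed no other count.

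The median member difference kept its sign in both task comparisons, between 0.065 and 0.16 with any 1 array left out. In AU-S minus AI-S it ran from -0.092 to -0.041 with 1 array left out and reached 0.037 with the hexokinase covariate. In AU-NS minus AI-NS it reached 0.015 with 1 array left out and -0.12 with the Gapdh and beta-actin covariate, in AU-act minus AI-act it lay between -0.089 (quantile normalization) and -0.024 (hexokinase covariate), and in the interaction it was 0.019 with the dissection covariates. Of 120 results for named members, only 1 had passed the test (Rpl7l1 in AU-act minus AI-act), so the others had no call to lose. Of 3900 values, 3888 stayed on their side of the threshold and within the spread between rats. The 8 weaker values all belonged to the called result, which did not reverse. A further 4 values moved, and 180 uncalled values changed sign. The pyrimidine run was found in 54.3% of members inside the searched bases and in 68.6% when overlapping runs were counted whole.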
